A study of Mus musculus with 12 samples.

Results

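Cell cycle and replication genes were followed across mouse embryonic stem (ES) cells given a BET inhibitor. The set holds 49 genes in 10 roles: D-type cyclins, the other cyclins, cyclin-dependent kinases (CDKs), CDK inhibitors, pocket proteins with E2F factors, origin licensing genes, S phase synthesis genes, the phosphatases and kinase that set CDK activity, mitotic genes and G2/M transcription factors. The members were taken by symbol through the gene identifiers of all 12 count tables, matched without their version to GENCODE mouse release M21. All 49 were found among the 52550 identifiers, and 49 of 49 passed the filter on low counts, which left 16987 genes for testing.

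The 12 libraries form 6 groups of 2. ES cells whose label names no knockout (unmodified cells from here on) were cultured either in serum/LIF or in 2iL, and the third kind, GSK3 knockout cells, only in serum/LIF. Each of these 3 settings received 100 nM JQ1 or DMSO and was harvested after 60 h. All groups had LIF, a cytokine that sustains self-renewal. 2iL is known as a serum-free medium with inhibitors of the kinases MEK and GSK3, but of its inhibitors the labels name only PD0325901, which blocks MEK, and leave out the name of the other agent. JQ1 displaces BET bromodomain proteins from acetylated histones, and DMSO is its solvent. Before being plated on gelatin for the experiment, the serum/LIF cells had lived on a mitomycin-treated fibroblast feeder layer, which the 2iL cells, kept on gelatin throughout, had not. Effects of medium and of feeder history cannot be told apart. The number of knockout clones, how the knockout was made and whether replicates were separate cultures are not given in the sources used here, so p-values measure only how these libraries vary, and that variation may be technical.

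In most cells D-type cyclins bind Cdk4 and Cdk6 and phosphorylate Rb family (pocket) proteins, which frees E2F factors to drive genes for licensing and DNA synthesis. Licensing loads the MCM helicase on origins, cyclins E and A with Cdk2 carry S phase, and cyclin B with Cdk1 drives mitosis, whose genes are switched on late by B-Myb and Foxm1. ES cells are known for a short G1 phase, high E2F activity and low levels of the INK4 inhibitors of Cdk4 and Cdk6. In bulk RNA a change in the share of cells in a phase and a change in RNA per cell cannot be told apart.

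The libraries held between 17869865 and 48723436 expected counts, and the deepest was unmodified serum/LIF DMSO replicate 1. In the knockout, Gsk3a stood at 24.7 and 23.4 CPM with DMSO against 76.8 and 65.1 CPM in unmodified serum/LIF cells, and Gsk3b at 51.2 and 42.5 against 74.7 and 72.2 CPM. CPM values are counts scaled to each effective (TMM-scaled) library size. Of 6 ES cell genes, Pou5f1, Sox2 and Sall4 exceeded 100 CPM in each of the 12 libraries. Nanog and Zfp42 were lowest in unmodified serum/LIF with JQ1, at 44.3 and 59.6 CPM and 53.5 and 91.2 CPM against 140.1 and 174 CPM and 121 and 182 CPM with DMSO, and Utf1 was lowest in 2iL, at 29.9 to 55.1 CPM in its 4 libraries. The summed level of 12 fibroblast markers was 832 and 827 CPM in the DMSO libraries of unmodified serum/LIF, 283 and 443 in those of the knockout and 15.6 and 10.3 in those of 2iL. In the JQ1 libraries it was 360.4 and 351, 204 and 158 and 9.45 and 7.12 CPM. In 2iL 7 of the 12 markers had 0 counts in both DMSO libraries, among them Col3a1, Postn and Dcn. The fibroblast markers therefore moved with each comparison below, and their part in the members' values was not tested. The members' values in the 2 libraries of a group differed by a median of 1.05 to 1.12 times, with Cdkn2d in 2iL DMSO the widest at 1.71 times.

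More members differed with the medium than in any other comparison. With DMSO, 37 of 49 members were higher and 4 lower in 2iL than in serum/LIF at an adjusted p under 0.05, whereas 54.8% of all genes tested passed, 28.3% higher and 26.5% lower. The members' median log2 fold change was 0.67, and that of all genes was 0.04. In the knockout 21 members were higher and 4 lower than in unmodified serum/LIF cells, beside 40% of all genes passing (18.9% higher and 21% lower), with medians of 0.28 for members and 0.01 for all genes. These comparisons share the unmodified serum/LIF DMSO libraries. Of the calls, 34 of 41 in 2iL and 21 of 25 in the knockout held whichever single library was left out.

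JQ1 moved fewer members. In unmodified serum/LIF cells 5 rose and 3 fell, where 21.3% of all genes passed (8.55% higher and 12.8% lower). In 2iL 5 rose and 12 fell (28.5% of all genes passed, 11.1% and 17.3%). In the knockout 15 rose and 9 fell (34.2% of all genes passed, 14.7% and 19.5%). The members' medians were 0.09, -0.03 and 0.12 on the log2 scale, and those of all genes -0.01, -0.06 and -0.06. Ccnd1, Ccnd2 and Rbl2 (3 of 49, or 6.12%) fell in all 3 settings and Rrm2 (1 of 49) rose in all 3. Of all genes 4.84% fell and 2.27% rose in each setting, so both counts were near the background. In 17 of the 49 no setting passed, and E2f4, Plk1 and Foxm1 passed in none of the 8 comparisons made. Many of these calls were small and depended on single libraries: 1 of 8, 4 of 17 and 8 of 24 held whichever single library was left out.

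**Figure D1:**
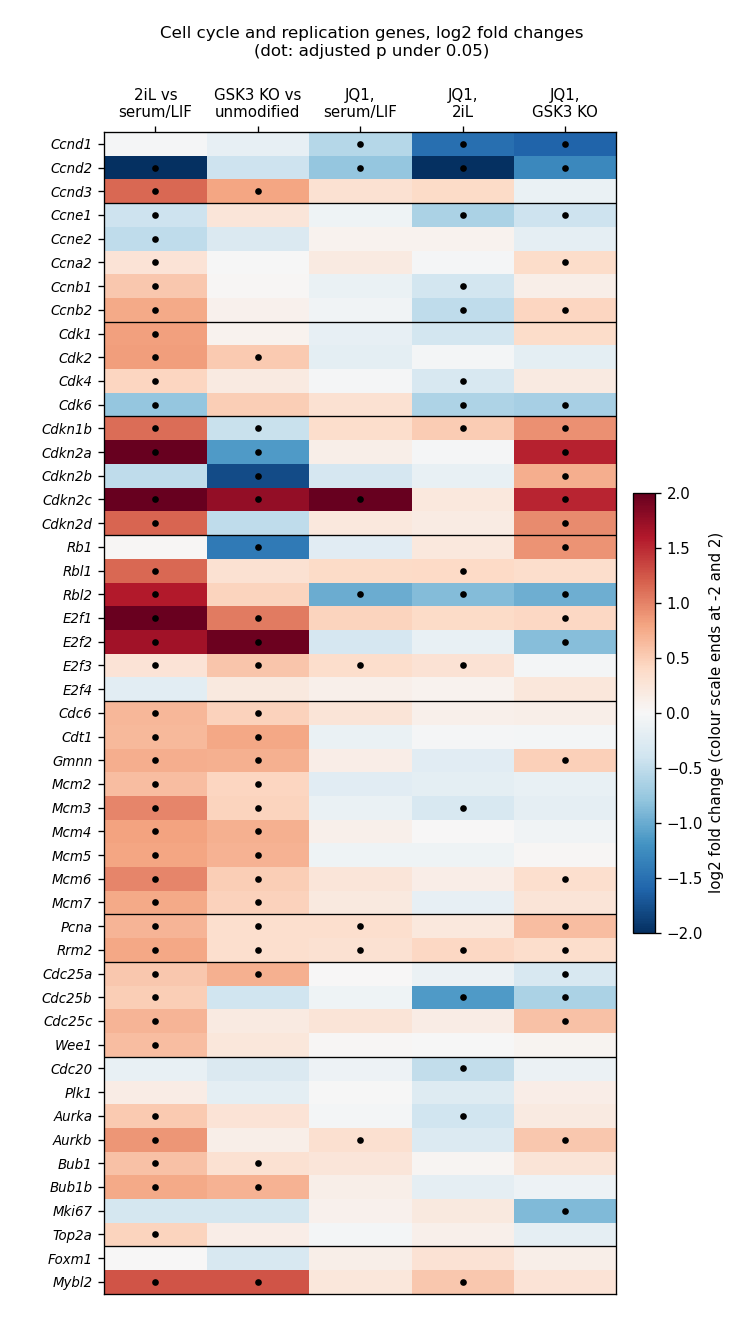
Colour gives the log2 fold change of each of the 49 members (rows, with lines between roles) in the medium, knockout and 3 JQ1 comparisons (columns), on a scale that ends at -2 and 2, and a dot marks an adjusted p under 0.05. The licensing block is higher throughout the 2iL and knockout columns, and Ccnd1, Ccnd2 and Rbl2 are lower in all 3 JQ1 columns.

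D-type cyclins link growth signals to the cycle. Ccnd2 was low in 2iL, and Ccnd1 and Ccnd2 fell with JQ1 in all 3 settings. Ccnd2 (ENSMUSG00000000184.12, chromosome 6, 127125162 to 127152193, GRCm38) stood at 63.5 and 80.3 CPM in the unmodified serum/LIF libraries with DMSO, at 44.0 and 63.9 CPM in the knockout and at 4.22 and 2.95 CPM in 2iL. The 2iL libraries lay far below both serum groups, which overlapped each other. Against serum/LIF the log2 fold change in 2iL was -4.32 ± 0.22 (adjusted p = 8.42e-09). With JQ1 the levels were 42.1 and 41.6 CPM in unmodified serum/LIF, 23.2 and 20.8 in the knockout and 0.626 and 0.474 in 2iL, the last resting on 11 and 11 counts. Each JQ1 pair lay below its DMSO pair. Its log2 fold changes were -0.78 ± 0.18, -1.29 ± 0.19 and -2.72 ± 0.35, with adjusted p = 0.0101, 0.000305 and 0.000151. The first call was lost on leaving out 1 library (adjusted p = 0.0881 omitting DMSO replicate 2). The fibroblast markers were lower with JQ1 too: of the 10 that could be tested, 9 fell in unmodified serum/LIF, 6 in the knockout and 3 in 2iL. Their part in the fall of Ccnd2 was not tested.

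Ccnd1 (ENSMUSG00000070348.5, chromosome 7, 144929931 to 144939925), the cyclin D most tied to Wnt and MEK-ERK signals, did not pass in the medium or knockout comparison. Its DMSO libraries held 174 and 142 CPM for unmodified serum/LIF, 145 and 166 CPM for 2iL and 135 and 147 CPM for the knockout. JQ1 brought it to 122 and 89.8 CPM, 47.2 and 62.1 CPM and 43.3 and 49.8 CPM in the same order. In CPM no JQ1 library reached the lowest DMSO library of its setting. Per transcript length, in the deposited TPM, the unmodified serum/LIF pairs overlapped, at 55.9 and 43.1 with DMSO and 45.5 and 30.5 with JQ1. Ccnd1 shares 1100 exonic bases with the opposite-strand gene LTO1, and the strand setting is not given. The log2 changes were -0.58 ± 0.17, -1.51 ± 0.17 and -1.60 ± 0.17 (adjusted p = 0.0271, 6.33e-05 and 3.44e-05). The fall was larger in 2iL than in unmodified serum/LIF, with a difference of -0.93 ± 0.24 (adjusted p = 0.0459), and larger in the knockout, with a difference of -1.02 ± 0.24 (adjusted p = 0.0301). In unmodified serum/LIF the call was lost without 1 of 2 libraries (adjusted p = 0.181 omitting DMSO replicate 1 and 0.189 omitting JQ1 replicate 2). The difference between 2iL and unmodified serum/LIF was lost with RLE scaling (adjusted p = 0.0625), without mitochondrially encoded genes (0.05002), with only the libraries compared (0.0909) and in 5 leave-one-out fits (adjusted p = 0.153 omitting unmodified serum/LIF DMSO replicate 2, 0.108 omitting unmodified serum/LIF JQ1 replicate 1, 0.0582 omitting 2iL DMSO replicate 1, 0.102 omitting 2iL DMSO replicate 2 and 0.2 omitting 2iL JQ1 replicate 1).

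Ccnd3 went the other way with the medium. It was higher in 2iL (302 and 227 CPM against 128 and 111 in unmodified serum/LIF, log2 1.14 ± 0.14, adjusted p = 1.87e-05) and in the knockout (203 and 209 CPM, log2 0.79 ± 0.14, adjusted p = 0.000728). Its JQ1 libraries stood at 139 and 158 CPM for unmodified serum/LIF, 372 and 314 for 2iL and 181 and 197 in the knockout, and none of these changes passed. Per transcript length, in the deposited TPM, Ccnd3 made up 56.3 and 55.1% of D-type cyclin RNA in the unmodified serum/LIF DMSO libraries, 71.7 and 70.1% in the knockout and 81.0 and 74.8% in 2iL. With JQ1 the shares were 65.5 and 73.7%, 86.1 and 86.4% and 94.0 and 91.0%. Ccnd3 was thus the most abundant D-type transcript in all 12 libraries, and its share was highest in 2iL with JQ1. The summed D-type TPM was 156 and 127 in unmodified serum/LIF DMSO, 159 and 146 with JQ1, 186 and 188 in the knockout, 135 and 137 with JQ1, 272 and 242 in 2iL and 287 and 255 with JQ1. In the knockout both JQ1 sums lay below both DMSO sums, and in the other settings the sums of the groups overlapped.

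**Figure D2:**
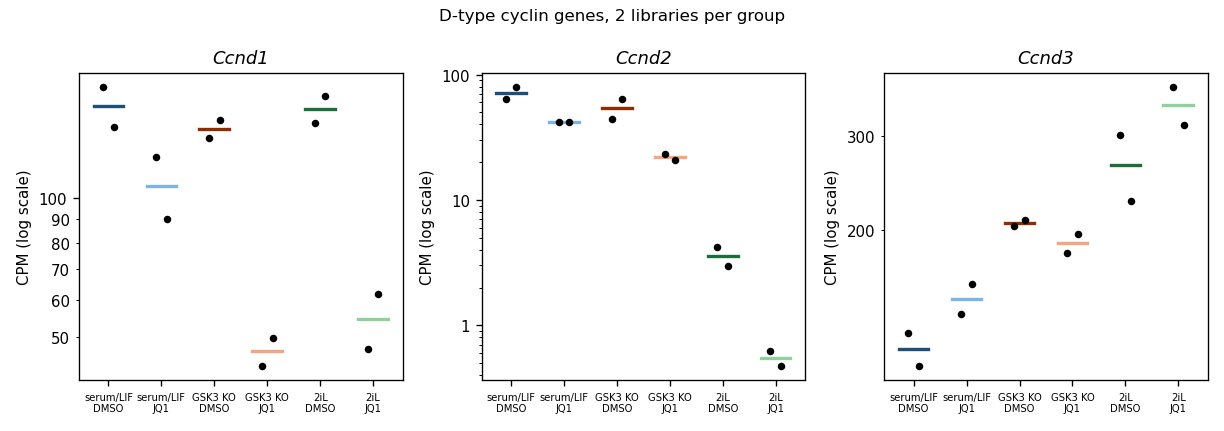
CPM of Ccnd1, Ccnd2 and Ccnd3 on log axes in the 6 groups, with each library as a point and the group mean as a line. Ccnd1 and Ccnd2 lie lower with JQ1 in each setting, and Ccnd2 in 2iL lies at 4.22 CPM or below in all 4 libraries.

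Among CDKs, Cdk4, the partner of D-type cyclins, was the most abundant per length with 483 and 423 TPM in unmodified serum/LIF with DMSO, against 21.5 and 12.8 TPM for Cdk6, 184 and 165 TPM for Cdk1 and 34.6 and 29.6 TPM for Cdk2. In 2iL Cdk2 stood at 110.0 and 109 CPM against 64.0 and 58.4 CPM in serum/LIF, a rise of 0.84 ± 0.10 on the log2 scale (adjusted p = 1.93e-05). Cdk1, the mitotic kinase, was higher by 0.82 ± 0.14 and Cdk4 by 0.43 ± 0.11, whereas Cdk6 was lower (-0.78 ± 0.19, adjusted p = 0.00335). Cdk2 was also higher in the knockout (88.6 and 87.4 CPM, log2 0.52 ± 0.10, adjusted p = 0.00153). With JQ1, Cdk6 fell in 2iL from 54.9 and 69.6 to 38.4 and 42.3 CPM and in the knockout from 159.6 and 140.0 to 92.5 and 96.9 CPM (log2 -0.62 ± 0.19 and -0.66 ± 0.19, adjusted p = 0.0283 and 0.0161). The 2 libraries in unmodified serum/LIF with JQ1 were far apart, at 161 and 103 CPM. The rise of Cdk4 in 2iL was lost without 1 library (adjusted p = 0.089 omitting 2iL DMSO replicate 1), and so were the JQ1 calls of Cdk6 in 2iL (adjusted p = 0.175 omitting DMSO replicate 2, 0.17 omitting JQ1 replicate 1 and 0.0946 omitting JQ1 replicate 2) and in the knockout (adjusted p = 0.111 omitting DMSO replicate 1, 0.0942 omitting JQ1 replicate 1 and 0.0711 omitting JQ1 replicate 2).

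The cyclins that act after G1 split by phase in 2iL. The G1/S cyclins Ccne1 and Ccne2 were lower than in serum/LIF (log2 -0.41 ± 0.13 and -0.50 ± 0.12, adjusted p = 0.017 and 0.0036), and the mitotic cyclins Ccnb1 and Ccnb2 were higher (0.54 ± 0.11 and 0.76 ± 0.13, adjusted p = 0.00145 and 0.000225). Ccna2, which serves S phase and G2, was higher by 0.28 ± 0.09 (adjusted p = 0.02). None of these 5 passed in the knockout. Ccne2 shares 609 exonic bases with the opposite-strand gene Ints8, and Ccna2 shares 510 with Exosc9. Without a stated strand setting some of their reads cannot be assigned with certainty. JQ1 lowered Ccne1 in 2iL from 117 and 103 to 74.3 and 67.4 CPM, pairs that do not overlap (log2 -0.64 ± 0.13, adjusted p = 0.00348). In the knockout Ccne1 went from 156 and 189.9 to 119 and 139 CPM (-0.42 ± 0.13, adjusted p = 0.0253). The call of Ccne1 was lost in the medium comparison (adjusted p = 0.102 omitting unmodified serum/LIF DMSO replicate 2 and 0.0658 omitting 2iL DMSO replicate 2) and under JQ1 in the knockout (adjusted p = 0.23 omitting DMSO replicate 2 and 0.206 omitting JQ1 replicate 1), and that of Ccna2 in 2iL was lost as well (adjusted p = 0.161 omitting unmodified serum/LIF DMSO replicate 2, 0.098 omitting 2iL DMSO replicate 1 and 0.108 omitting 2iL DMSO replicate 2).

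Origin licensing genes moved as a block with the starting state. All 9 were higher in 2iL and all 9 in the knockout, with median log2 fold changes of 0.76 and 0.50, and each of these 18 calls held in every leave-one-out fit. Of all genes tested 28.3% were higher in 2iL and 18.9% in the knockout. The summed CPM of Mcm2 to Mcm7, the replicative helicase, was 1540 and 1573 in unmodified serum/LIF DMSO, 2169 and 2341 in the knockout and 2752 and 2719 in 2iL. Neither of the higher groups overlapped the unmodified serum/LIF pair. Mcm3 moved furthest with the medium, from 261 and 267 to 518 and 524 CPM (log2 0.98 ± 0.09, adjusted p = 1.08e-06), and reached 346 and 372 CPM in the knockout (0.44 ± 0.09, adjusted p = 0.00148). The smallest MCM change in 2iL was that of Mcm2 (0.61 ± 0.09). In the knockout the largest was Mcm4, from 207 and 208 to 331 and 348 CPM (log2 0.71 ± 0.09, adjusted p = 5.02e-05).

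The helicase is a ring with 1 copy of each of 6 subunits, and the range of their transcript levels was similar across the DMSO libraries. In TPM the highest subunit exceeded the lowest by 2.25 and 2.43 times in unmodified serum/LIF DMSO, 1.98 and 2.02 times in the knockout and 2.17 and 2.08 times in 2iL. Mcm7 had the highest share in all 12 libraries, at 24.0 and 25.2% of the 6 in unmodified serum/LIF DMSO, and Mcm4 the lowest, at 10.7 and 10.4%. The proportions shifted with JQ1, with a lower Mcm3 share and a higher Mcm6 share in each setting. In 2iL Mcm3 went from 19.2 and 18.7% to 15.8 and 16.1%, and Mcm6 from 14.6 and 15.9% to 17.9 and 18.0%. In unmodified serum/LIF Mcm3 went from 16.6 and 16.5% to 14.8 and 14.5%, and Mcm6 from 13.4 and 13.5% to 15.7 and 15.9%. These shares were not tested. The loaders Cdc6 and Cdt1 were higher in 2iL (0.67 ± 0.11 and 0.64 ± 0.11) and in the knockout (0.47 ± 0.11 and 0.77 ± 0.11). Gmnn, which encodes the Cdt1 inhibitor geminin, was higher too (0.73 ± 0.13 and 0.71 ± 0.13), so activators and inhibitor of licensing moved together. Cdt1 had 112 and 115 CPM in the unmodified serum/LIF DMSO pair, 190.0 and 197 CPM in the knockout pair and 185 and 169 CPM in the 2iL pair.

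Under JQ1 the licensing genes mostly did not pass: 0 of 9 in unmodified serum/LIF, 1 lower in 2iL (Mcm3) and 2 higher in the knockout (Mcm6 and Gmnn). These shares of 0%, 11.1% and 22.2% lay below the 21.3%, 28.5% and 34.2% of all genes that passed. The summed MCM level with JQ1 was 1534 and 1611 CPM, 2567 and 2495 CPM and 2273 and 2377 CPM in these settings. Mcm3 went from 518 and 524 to 418 and 418 CPM in 2iL (log2 -0.32 ± 0.09, adjusted p = 0.0173), Mcm6 from 275 and 307 to 359 and 375 in the knockout (0.33 ± 0.09, adjusted p = 0.016) and Gmnn from 56.3 and 71.0 to 83.5 and 94.5 (0.48 ± 0.13, adjusted p = 0.0126). All 3 calls were lost on leaving out libraries, Mcm3 (adjusted p = 0.0577 omitting DMSO replicate 1, 0.0533 omitting DMSO replicate 2, 0.104 omitting JQ1 replicate 1 and 0.0974 omitting JQ1 replicate 2), Mcm6 (adjusted p = 0.156 omitting DMSO replicate 1, 0.0568 omitting JQ1 replicate 1 and 0.108 omitting JQ1 replicate 2) and Gmnn (adjusted p = 0.148 omitting DMSO replicate 1 and 0.11 omitting JQ1 replicate 2). The S phase genes Pcna, the replication clamp, and Rrm2, a ribonucleotide reductase subunit, were higher in 2iL (log2 0.68 ± 0.10 and 0.78 ± 0.10). Pcna rose further with JQ1 in the knockout, from 247 and 273 to 379.8 and 416 CPM (log2 0.62 ± 0.10, adjusted p = 0.000679). Rrm2 rose by 0.31 ± 0.10, 0.41 ± 0.10 and 0.34 ± 0.10 with JQ1 in unmodified serum/LIF, 2iL and the knockout. Each Rrm2 call was lost without some library: adjusted p = 0.0995 omitting DMSO replicate 1, 0.155 omitting DMSO replicate 2 and 0.101 omitting JQ1 replicate 2 in unmodified serum/LIF, adjusted p = 0.0689 omitting JQ1 replicate 2 in 2iL, and adjusted p = 0.12 omitting DMSO replicate 1 and 0.125 omitting JQ1 replicate 2 in the knockout.

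Because the licensing genes shifted as a block and Ccnb2 responded to JQ1 in opposite directions in 2iL and in the knockout, promoters are shown for a pair of licensing genes and for Ccnb2 with the mitotic kinase gene Cdk1. RefSeq windows (GRCm38.p6) from 250 bases before to 50 after the start were found for 37 of 49 members, 43 windows in all. Exact letters were searched on both strands: TTCCCGC and TTGGCGC for E2F, CCAAT for the CCAAT box that NF-Y binds, TTTGAA for the cell cycle homology region (CHR) of late genes, and CTTTGA for TCF. The letters can overlap, as CTTTGAA holds both a TCF and a CHR match. Printed below are the 250 bases before the start, 5′ to 3′ on the gene's strand, with E2F, CCAAT and CHR matches of either strand in capitals. Mcm5 and Mcm6 hold 2 E2F and 2 CCAAT matches each and no CHR match in these bases. Cdk1 and Ccnb2 hold 3 CCAAT matches each, with 2 CHR matches and 1 E2F match in Cdk1 and 1 CHR match in Ccnb2.
Mcm5, chr8:75109259-75109508, plus strand: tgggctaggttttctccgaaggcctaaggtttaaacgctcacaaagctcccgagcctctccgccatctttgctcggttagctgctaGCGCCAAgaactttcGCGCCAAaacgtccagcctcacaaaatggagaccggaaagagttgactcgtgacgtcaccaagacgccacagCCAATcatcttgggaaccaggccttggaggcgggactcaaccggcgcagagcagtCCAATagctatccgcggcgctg
Mcm6, chr1:128359706-128359955, minus strand: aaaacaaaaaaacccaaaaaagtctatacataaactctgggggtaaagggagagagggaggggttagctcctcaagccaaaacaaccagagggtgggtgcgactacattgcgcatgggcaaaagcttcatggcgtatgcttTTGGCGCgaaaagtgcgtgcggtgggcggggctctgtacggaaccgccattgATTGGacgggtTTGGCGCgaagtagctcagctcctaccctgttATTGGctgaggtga
Cdk1, chr10:69352913-69353162, minus strand: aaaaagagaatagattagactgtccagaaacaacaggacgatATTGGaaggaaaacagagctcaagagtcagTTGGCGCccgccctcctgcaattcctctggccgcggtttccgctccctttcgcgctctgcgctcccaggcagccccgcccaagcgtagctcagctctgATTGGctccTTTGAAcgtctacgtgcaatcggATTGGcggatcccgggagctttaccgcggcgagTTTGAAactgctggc
Ccnb2, chr9:70421555-70421804, minus strand: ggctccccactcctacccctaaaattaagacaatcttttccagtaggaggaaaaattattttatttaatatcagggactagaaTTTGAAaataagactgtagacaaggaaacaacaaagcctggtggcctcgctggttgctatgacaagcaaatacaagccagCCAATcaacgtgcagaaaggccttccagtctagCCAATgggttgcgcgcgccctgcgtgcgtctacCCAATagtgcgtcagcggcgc

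Over whole windows of 300 bases, an E2F match of either kind was in 7 of the 10 windows of licensing and S phase genes (70%) and in 3 of the 11 windows of mitotic, cyclin B, Cdk1 and Mybl2 genes (27.3%), against 6.81% of all 32851 windows. The CHR letters were in 8 of those 11 late-gene windows (72.7%) and in 1 of the 10 licensing and S phase windows (10%), against 17.9% of all windows. CCAAT was in 90.9% and 80% of these windows and in 37.4% of all windows. The TCF letters were in 4 of the 43 member windows (9.3%) and in 16% of all windows. These are matches of letters, not measured binding.

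**Figure D3:**
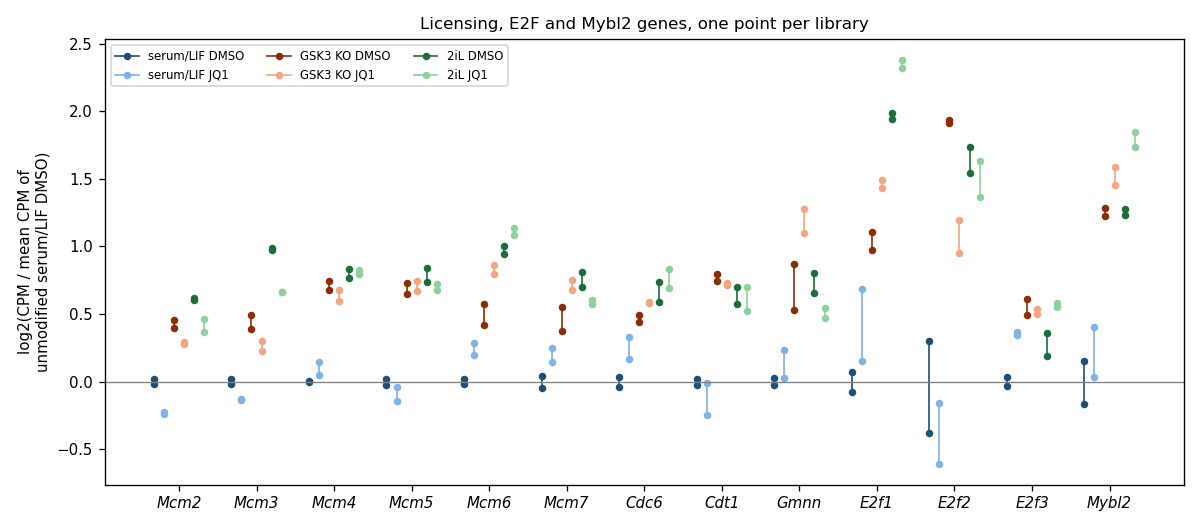
Each point is 1 library, as the log2 ratio of its CPM to the mean of unmodified serum/LIF with DMSO, for the licensing genes, E2f1 to E2f3 and Mybl2, and a line joins the 2 libraries of a group. All knockout and 2iL points of the 9 licensing genes lie above 0, and E2f1, E2f2 and Mybl2 reach higher than the licensing genes in 2iL.

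E2F factors and pocket proteins, the switch upstream of these genes, changed with the starting state. E2f1, an activating E2F, stood at 18.2 and 20.1 CPM in unmodified serum/LIF, 37.7 and 41.2 in the knockout and 73.7 and 76.1 in 2iL with DMSO. The 3 groups do not overlap, and their order is unmodified serum/LIF, knockout, 2iL. The differences from unmodified serum/LIF were 1.05 ± 0.15 (adjusted p = 0.000128) and 1.97 ± 0.15 (adjusted p = 2.27e-07) on the log2 scale. E2f2, a second activator, stood at 4.95 and 7.93, 24.2 and 24.7 and 21.4 and 18.8 CPM (log2 1.96 ± 0.22 in the knockout and 1.68 ± 0.22 in 2iL, adjusted p = 1.83e-05 and 3.07e-05), here with the knockout highest. Per length E2f3 was the leading activator in unmodified serum/LIF DMSO, with 56.1 and 51.7% of the summed TPM of E2f1 to E2f3, and E2f1 in 2iL with 63.8 and 63.3%. JQ1 lowered E2f2 in the knockout to 12.4 and 14.8 CPM (-0.85 ± 0.21, adjusted p = 0.00834, and adjusted p = 0.083 omitting JQ1 replicate 1). E2f3, a further activator, was higher in the knockout at 78.2 and 72.2 CPM against 52.4 and 50.1 CPM (0.55 ± 0.10, adjusted p = 0.00082). E2f4, a repressive E2F, ranged from 112 to 181 CPM over the 12 libraries.

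Mybl2, which encodes B-Myb, was higher in both other starting states. Its DMSO libraries held 229 and 286 CPM in unmodified serum/LIF, 602 and 628 in the knockout and 626 and 607 in 2iL, log2 changes of 1.26 ± 0.14 and 1.26 ± 0.14. JQ1 took it to 929 and 858 CPM in 2iL (0.54 ± 0.13, adjusted p = 0.01, and adjusted p = 0.0638 omitting JQ1 replicate 1). Foxm1, its partner at late promoters, ran from 65.8 to 111 CPM over all libraries and passed in no comparison.

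Pocket proteins did not move as 1 group. Rb1 (ENSMUSG00000022105.6, chromosome 14, 73183673 to 73325822), the retinoblastoma gene, stood at 7.82 and 7.60 CPM in the knockout with DMSO, against 20.2 and 20.8 CPM in unmodified serum/LIF and 18.5 and 23.0 CPM in 2iL. The knockout pair lay below all other libraries. Its difference from unmodified cells was -1.41 ± 0.15 (adjusted p = 8.79e-06). With JQ1 the knockout libraries stood at 14.4 and 14.3 CPM, a rise of 0.89 ± 0.15 (adjusted p = 0.000716), and the unmodified ones at 18.4 and 16.8 CPM, which did not pass. The JQ1 response of Rb1 was higher in the knockout than in unmodified serum/LIF by 1.11 ± 0.20 (adjusted p = 0.0102, and adjusted p = 0.05 omitting knockout JQ1 replicate 1). The size of this difference holds for counts. In the deposited TPM the unmodified serum/LIF pairs overlapped, at 5.76 and 6.45 with DMSO and 5.87 and 7.84 with JQ1. The knockout pairs stood at 2.55 and 3.10 TPM with DMSO and 5.75 and 4.19 TPM with JQ1. Rb1 shares 408 and 488 exonic bases with the opposite-strand genes Lpar6 and Rcbtb2, so without a stated strand setting some of its reads cannot be assigned with certainty.

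Rbl2, which encodes p130, a pocket protein of resting cells, fell with JQ1 in every setting. The pairs went from 4.81 and 5.53 to 2.65 and 2.52 CPM in unmodified serum/LIF, from 15.1 and 15.8 to 8.65 and 8.28 in 2iL and from 8.38 and 5.53 to 4.22 and 2.78 in the knockout. No pair overlapped. The log2 changes were -0.99 ± 0.25, -0.87 ± 0.23 and -0.97 ± 0.24 (adjusted p = 0.0149, 0.0125 and 0.00901). The calls were lost without single libraries: adjusted p = 0.0723 omitting DMSO replicate 2, 0.0568 omitting JQ1 replicate 1 and 0.068 omitting JQ1 replicate 2 in unmodified serum/LIF, adjusted p = 0.0696 omitting JQ1 replicate 1 and 0.0908 omitting JQ1 replicate 2 in 2iL, and adjusted p = 0.133 omitting DMSO replicate 1 and 0.0913 omitting JQ1 replicate 2 in the knockout. Rbl2 was higher in 2iL than in serum/LIF with DMSO (1.59 ± 0.23, adjusted p = 6.96e-05), as was Rbl1, which encodes p107 (17.8 and 19.5 against 36.3 and 46.3 CPM, log2 1.15 ± 0.15, adjusted p = 2.28e-05). The exons of Rbl2 overlap those of Aktip and Gm45464 on the other strand.

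CDK inhibitors hold back the kinases above, and among the 5 members the response to JQ1 depended on the setting for Cdkn2a and Cdkn2c. All 5 rose with JQ1 in the knockout, 1 of 5 (Cdkn2c) in unmodified serum/LIF and 1 of 5 (Cdkn1b) in 2iL. Of all genes 14.7%, 8.55% and 11.1% rose in these settings, and 34.2%, 21.3% and 28.5% passed in either direction. CDK inhibitor genes outside the members also fell. Cdkn1a fell with JQ1 in unmodified serum/LIF (log2 -1.05 ± 0.21, adjusted p = 0.00413) and Cdkn1c in 2iL (-1.06 ± 0.24, adjusted p = 0.00548). The response of Cdkn1a was higher in 2iL than in unmodified serum/LIF (1.14 ± 0.29, adjusted p = 0.0463). Cdkn2a (ENSMUSG00000044303.6, chromosome 4, 89274471 to 89294653) encodes p16Ink4a and, from another first exon, p19Arf, which counts per gene do not separate. It stood at 6.84 and 7.93 CPM in unmodified serum/LIF with DMSO, 3.15 and 3.58 in the knockout and 34.6 and 30.8 in 2iL, 3 levels without overlap (log2 -1.13 ± 0.17 and 2.15 ± 0.15, adjusted p = 0.000208 and 1.1e-07). JQ1 raised it in the knockout to 10.4 and 9.02 CPM (1.54 ± 0.17, adjusted p = 4.31e-05), above both unmodified serum/LIF libraries with DMSO. The JQ1 libraries of unmodified serum/LIF stood at 7.60 and 8.28 CPM and those of 2iL at 33.8 and 30.8 CPM, and neither change passed. The response in the knockout exceeded that in unmodified serum/LIF by 1.43 ± 0.23 (adjusted p = 0.00569), and the response in 2iL minus that in the knockout was -1.56 ± 0.22 (adjusted p = 0.00213). Both held whichever single library was left out.

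Its neighbour Cdkn2b (ENSMUSG00000073802.4, chromosome 4, 89306299 to 89311039), encoding p15Ink4b, had the lowest level in the knockout too, 2.49 and 2.18 CPM against 7.92 and 8.19 in unmodified serum/LIF (log2 -1.78 ± 0.22, adjusted p = 4.65e-05). JQ1 brought it to 4.33 and 3.34 CPM in the knockout (0.72 ± 0.23, adjusted p = 0.0297), a call lost with DESeq2 (adjusted p = 0.0536) and on leaving out libraries (adjusted p = 0.0848 omitting DMSO replicate 1, 0.146 omitting DMSO replicate 2 and 0.222 omitting JQ1 replicate 1). Unlike Cdkn2a it did not pass in the medium comparison (6.01 and 5.34 CPM in 2iL). Cdkn2c, encoding p18Ink4c, was scarce, at 0.244 and 0.256 CPM or 12 and 5 counts in unmodified serum/LIF with DMSO. It stood at 1.56 and 1.21 CPM with JQ1 there, 0.762 and 0.95 and 2.68 and 2.23 CPM in the knockout without and with JQ1, and 5.83 and 4.19 and 5.98 and 5.61 CPM in 2iL. Both DMSO libraries of unmodified serum/LIF were the lowest of the 12. Its log2 changes were 2.46 ± 0.37 with JQ1 in unmodified serum/LIF (adjusted p = 0.000788), 1.53 ± 0.32 with JQ1 in the knockout (0.00315) and 4.31 ± 0.35 in 2iL against serum/LIF (3.52e-07).

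Cdkn1b, encoding p27Kip1, the inhibitor of Cdk2 complexes, went from 12.9 and 12.2 to 25.0 and 22.1 CPM with JQ1 in the knockout, from 34.5 and 40.1 to 49.7 and 55.8 in 2iL and from 16.7 and 17.6 to 21.2 and 22.5 in unmodified serum/LIF. All 3 JQ1 pairs lay above their DMSO pairs, and the first and second changes passed (0.91 ± 0.13 and 0.50 ± 0.12, adjusted p = 0.000321 and 0.0101). The call in 2iL was lost on leaving out libraries (adjusted p = 0.0886 omitting DMSO replicate 1 and 0.101 omitting JQ1 replicate 2). The lower level in the knockout with DMSO (-0.44 ± 0.13, adjusted p = 0.0178) was lost in each of the 4 leave-one-out fits, with adjusted p from 0.0536 without unmodified serum/LIF DMSO replicate 1 to 0.106 without knockout DMSO replicate 2, and with 0.0699 without unmodified serum/LIF DMSO replicate 2 and 0.0667 without knockout DMSO replicate 1. Cdkn2d, encoding p19Ink4d, rose from 4.57 and 3.47 to 8.83 and 6.57 CPM with JQ1 in the knockout (0.94 ± 0.27, adjusted p = 0.0174, and adjusted p = 0.121 omitting DMSO replicate 2 and 0.145 omitting JQ1 replicate 1). Summed over the 4 INK4 genes, TPM was 13.2 and 13.1 in the knockout with DMSO, 34.4 and 25.4 with JQ1, 26.9 and 27.3 in unmodified serum/LIF with DMSO and 99.1 and 85.0 in 2iL with DMSO. The highest INK4 sums and the highest MCM sums were thus both in 2iL, and the knockout with DMSO paired high MCM sums with the lowest INK4 sums.

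**Figure D4:**
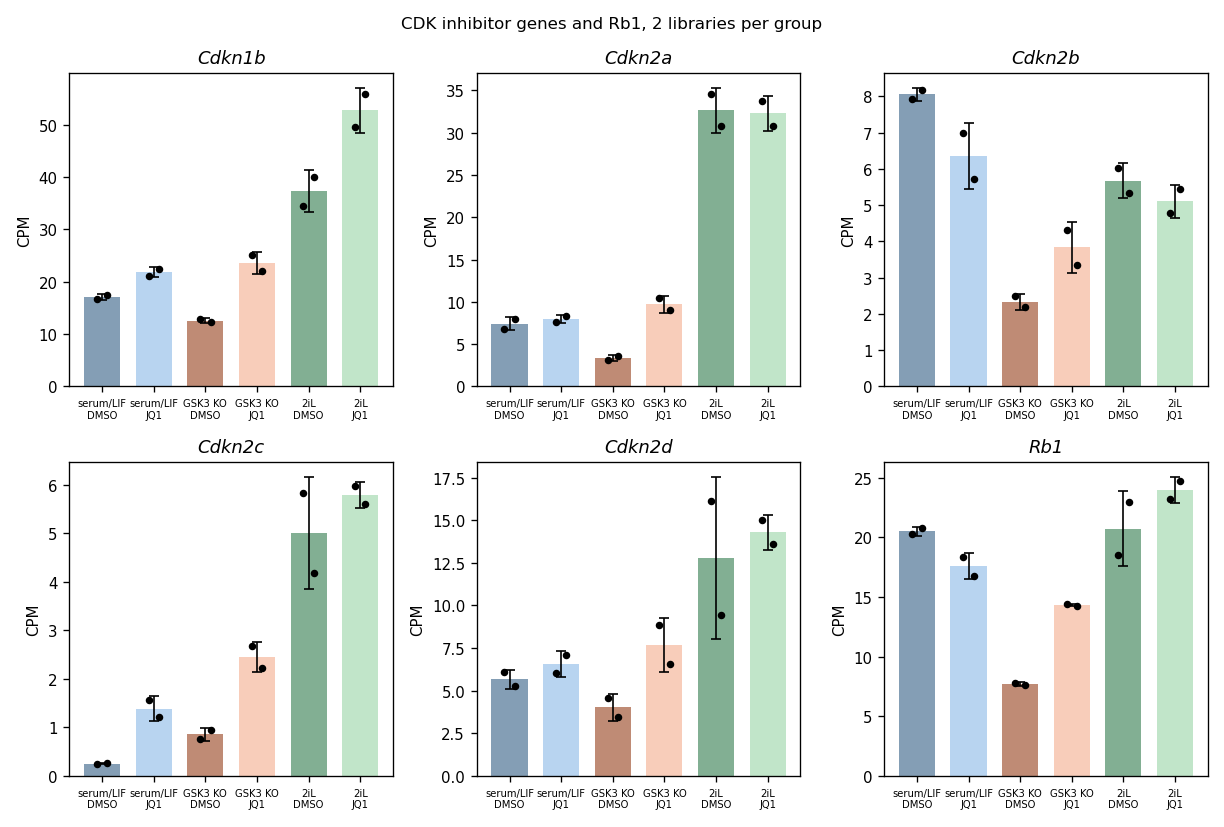
Bars give the mean CPM of 2 libraries with SD, and points the libraries, for the 5 CDK inhibitor genes and Rb1. In the GSK3 knockout all 6 genes stand higher with JQ1 than with DMSO, and Cdkn2a in 2iL stands near 33 CPM with or without JQ1.

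The genes that set CDK activity before mitosis were higher in 2iL, 4 of 4, where 54.8% of all genes passed and 28.3% were higher. Wee1, the inhibitory kinase, stood at 96.7 and 99.6 CPM against 66.4 and 61.4 in serum/LIF (log2 0.62 ± 0.11, adjusted p = 0.000373), and the opposing phosphatase genes Cdc25a and Cdc25c were higher by 0.53 ± 0.11 and 0.68 ± 0.15. Cdc25a was also higher in the knockout (82.3 and 77.0 against 136 and 125 CPM, log2 0.71 ± 0.11, adjusted p = 0.000173). Cdc25b, another activating phosphatase, fell with JQ1 in 2iL from 28.4 and 23.7 to 13.0 and 10.9 CPM (-1.13 ± 0.19, adjusted p = 0.00103) and in the knockout from 15.0 and 13.1 to 10.2 and 7.68 CPM (-0.64 ± 0.20, adjusted p = 0.0243). In unmodified serum/LIF its JQ1 pair, 14.8 and 20.0 CPM, spanned the DMSO pair of 19.3 and 17.5 CPM. The call in the knockout was lost on leaving out DMSO replicate 1 (log2 -0.54) or JQ1 replicate 2 (log2 -0.45). The rise of Cdc25b in 2iL with DMSO was lost with DESeq2 (adjusted p = 0.084) and RLE scaling (adjusted p = 0.0609). It was lost too without mitochondrially encoded genes (adjusted p = 0.0557) and with only the libraries compared (adjusted p = 0.0589). Leaving out unmodified serum/LIF DMSO replicate 1 or 2 or 2iL DMSO replicate 1 also lost it (log2 0.57, 0.43 and 0.31).

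Of 8 mitotic genes 5 were higher and 0 lower in 2iL. That is 62.5% passing, beside 54.8% of all genes (28.3% higher and 26.5% lower). Aurkb, the kinase of the chromosomal passenger complex, went from 50.2 and 49.1 to 92.1 and 90.8 CPM (log2 0.88 ± 0.11, adjusted p = 1.87e-05), and the spindle checkpoint genes Bub1 and Bub1b were higher by 0.59 ± 0.10 and 0.76 ± 0.09. Aurka, the spindle pole kinase, and Top2a, a topoisomerase, were higher by 0.52 ± 0.12 and 0.45 ± 0.10, and these calls were lost without 1 library each (Aurka, adjusted p = 0.0528 omitting 2iL DMSO replicate 1, and Top2a, adjusted p = 0.0701 omitting 2iL DMSO replicate 2). Bub1b was likewise higher in the knockout, at 210.5 and 206 CPM against 127 and 129.5 (log2 0.70 ± 0.09, adjusted p = 7.99e-05). Cdc20, an activator of the anaphase-promoting complex, and the kinase gene Plk1 did not pass in the medium comparison. Their DMSO pairs were 301 and 247 CPM and 183 and 161 CPM in unmodified serum/LIF and 272 and 223 CPM and 212 and 170.0 CPM in 2iL. The proliferation marker Mki67 varied widely between replicates, with 300.5 and 466 CPM in 2iL DMSO, 651 and 392 in unmodified serum/LIF JQ1 and 454 and 316 in the knockout DMSO. It fell with JQ1 in the knockout to 219.9 and 198 CPM (-0.88 ± 0.24, adjusted p = 0.013), a call lost without any of 3 libraries (adjusted p = 0.141 omitting DMSO replicate 1, 0.0502 omitting JQ1 replicate 1 and 0.0922 omitting JQ1 replicate 2).

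Ccnb2, a mitotic cyclin, moved in opposite directions with JQ1 in 2iL and in the knockout. It fell in 2iL from 122 and 104 to 79.7 and 78.7 CPM and rose in the knockout from 70.8 and 70.9 to 94.6 and 95.9 CPM (log2 -0.52 ± 0.13 and 0.43 ± 0.13, adjusted p = 0.00901 and 0.0202). The difference of the responses was -0.94 ± 0.18 (adjusted p = 0.00932) and held whichever single library was left out. The separate calls did not: adjusted p = 0.0779 omitting DMSO replicate 1, 0.0579 omitting JQ1 replicate 1 and 0.0664 omitting JQ1 replicate 2 in 2iL, and adjusted p = 0.0963 omitting DMSO replicate 1, 0.0823 omitting DMSO replicate 2, 0.0791 omitting JQ1 replicate 1 and 0.0932 omitting JQ1 replicate 2 in the knockout. Aurkb rose in the knockout from 51.4 and 56.1 to 76.1 and 79.5 CPM (0.53 ± 0.11, adjusted p = 0.00282), and stood at 92.1 and 90.8 and 75.7 and 74.9 CPM in 2iL without and with JQ1, a change that did not pass. Its responses differed by -0.81 ± 0.15 (adjusted p = 0.00932, and adjusted p = 0.0596 omitting knockout DMSO replicate 1). In all, 8 members had a lower response in 2iL than in the knockout and 0 a higher one, while 12.1% of all genes passed (5.41% lower and 6.69% higher). Beside Ccnb2 and Aurkb these were Ccnd2, Cdk1, Cdkn2a, Rb1, Gmnn and Aurka. The count depended on single libraries, from 2 without knockout DMSO replicate 1, 3 without any 1 of the 4 JQ1 libraries and 4 without 2iL DMSO replicate 1 to 14 without 2iL DMSO replicate 2.

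The other JQ1 calls were small, and each was lost on leaving out some of its 4 libraries. In 2iL the mitotic genes Cdc20 and Aurka fell from 272 and 223 to 185 and 166 CPM and from 135 and 108 to 95.9 and 89.7 CPM (log2 -0.49 ± 0.12 and -0.39 ± 0.12). Their adjusted p of 0.0092 and 0.0267 became adjusted p = 0.0951 omitting DMSO replicate 1 and 0.0976 omitting JQ1 replicate 2, and for Aurka adjusted p = 0.251 omitting DMSO replicate 1, 0.086 omitting JQ1 replicate 1 and 0.165 omitting JQ1 replicate 2. Ccnb1 and Cdk4 were also lower there (-0.37 ± 0.11 and -0.32 ± 0.11, adjusted p = 0.0307 and 0.05), and Rbl1 and E2f3 higher (0.40 ± 0.14 and 0.29 ± 0.10, adjusted p = 0.0496 and 0.0473). All 4 calls were lost without DMSO replicate 1, JQ1 replicate 1 or JQ1 replicate 2, with adjusted p of 0.119 to 0.193 for Ccnb1, 0.159 to 0.293 for Cdk4, 0.108 to 0.312 for Rbl1 and 0.143 to 0.257 for E2f3. In the knockout Ccna2, Cdc25c and E2f1 rose (0.37 ± 0.09, 0.58 ± 0.15 and 0.42 ± 0.15, adjusted p = 0.00854, 0.0102 and 0.0413) and Cdc25a fell (-0.31 ± 0.11, adjusted p = 0.0366). For Ccna2 the values were adjusted p = 0.0698 omitting DMSO replicate 1 and 0.0597 omitting JQ1 replicate 2, and for Cdc25c adjusted p = 0.0634 omitting DMSO replicate 2 and 0.0659 omitting JQ1 replicate 1. E2f1 and Cdc25a lost their calls without any 1 of the 4 libraries, with adjusted p of 0.0825 to 0.207 and 0.0709 to 0.231. In unmodified serum/LIF Pcna, Aurkb and E2f3 rose (0.33 ± 0.10, 0.33 ± 0.11 and 0.36 ± 0.10, adjusted p = 0.0342, 0.0496 and 0.024). The calls of Pcna and Aurkb were lost without DMSO replicate 1, DMSO replicate 2 or JQ1 replicate 2 (adjusted p = 0.0694 to 0.171 and 0.125 to 0.244), and that of E2f3 without any 1 of the 4 libraries (0.0594 to 0.121).

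Against unmodified serum/LIF, the JQ1 response was lower in 2iL for 5 members (Ccnd1, Ccnd2, Cdkn2c, Cdc25b and Aurkb) and higher for 0, while 4.16% of all genes passed (2.8% lower and 1.35% higher). For Ccnd2 the difference was -1.94 ± 0.41 (adjusted p = 0.018) and for Cdkn2c -2.25 ± 0.46 (adjusted p = 0.0147), both with few counts in 1 of the groups. Each of these 5 calls was lost without at least 1 library. For Ccnd2 these were adjusted p = 0.066 omitting 2iL DMSO replicate 1, 0.0598 omitting 2iL JQ1 replicate 1 and 0.139 omitting 2iL JQ1 replicate 2. For Cdkn2c they were adjusted p = 0.087 omitting unmodified serum/LIF DMSO replicate 1 and 0.0578 omitting 2iL JQ1 replicate 2. The knockout differed from unmodified cells in 3 members, Cdkn2a and Rb1 with a higher and Ccnd1 with a lower response, while 4.37% of all genes passed (1.25% higher and 3.12% lower). The Ccnd1 difference was lost without any 1 of 6 libraries (adjusted p = 0.0878 omitting unmodified serum/LIF DMSO replicate 2, 0.102 omitting unmodified serum/LIF JQ1 replicate 1, 0.0801 omitting knockout DMSO replicate 1, 0.0869 omitting knockout DMSO replicate 2, 0.136 omitting knockout JQ1 replicate 1 and 0.074 omitting knockout JQ1 replicate 2). The responses in unmodified serum/LIF enter both of these comparisons.

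**Figure D5:**
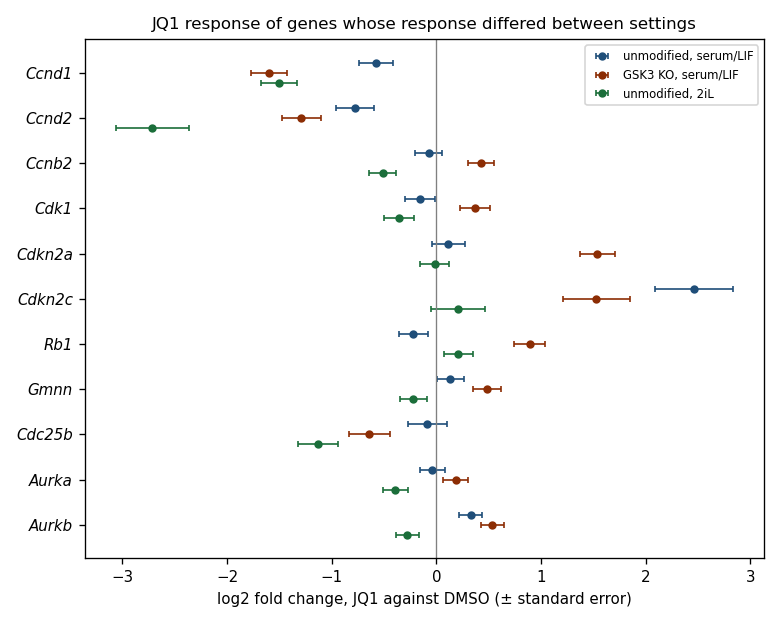
Points give the log2 fold change of JQ1 against DMSO with its standard error in the 3 settings, for the 11 members whose response differed between at least 1 pair of settings. Ccnd1 and Ccnd2 lie left of 0 in all settings, whereas Cdkn2a and Rb1 lie right of 0 in the knockout, at 1.54 and 0.89, and nearer to 0 in the other settings.

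Further genes of the pathway, in 3 lists that hold no member, were read in the same fit. Of 35 other replication genes 28 were higher and 0 lower in 2iL, with a median log2 fold change of 0.46, and in the knockout 14 were higher and 0 lower (median 0.26). That is 80% and 40% of the list, all of them higher, where 28.3% and 18.9% of all genes were higher. In either direction 54.8% and 40% of all genes passed, so the knockout share equalled the background only with both directions pooled. Pola1, a DNA polymerase alpha subunit, led in 2iL (52.2 and 63.0 against 138 and 181 CPM, log2 1.47 ± 0.14), and Rpa1, a single-strand binding protein, in the knockout (149.7 and 149 against 333 and 363 CPM, log2 1.22 ± 0.13). With JQ1 12 of the 35 rose and 1 fell in the knockout, against 3 and 1 in unmodified serum/LIF and 2 and 2 in 2iL. In either direction these shares of 37.1%, 11.4% and 11.4% compare with 34.2%, 21.3% and 28.5% of all genes. The pooled count in the knockout was near the background and the other counts were below it. By direction, 34.3% rose and 2.86% fell in the knockout, where 14.7% of all genes rose and 19.5% fell. In unmodified serum/LIF 8.57% rose and 2.86% fell (8.55% and 12.8% of all genes). In 2iL 5.71% rose and 5.71% fell (11.1% and 17.3% of all genes). None of the 35 passed in the difference between the JQ1 responses of knockout and unmodified cells. Rfc5, a clamp loader subunit, rose furthest in the knockout (0.76 ± 0.12).

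Of 27 other mitotic genes 15 were higher and 2 lower in 2iL, and 5 were higher and 3 lower in the knockout. JQ1 raised 1 and lowered 5 in 2iL, and raised 6 and lowered 0 in the knockout. With both directions pooled, only the share for the medium, 63.0%, was above that of all genes (54.8%). The pooled shares for the knockout with DMSO (29.6%), JQ1 in 2iL (22.2%) and JQ1 in the knockout (22.2%) were below the 40%, 28.5% and 34.2% of all genes. By direction, JQ1 in the knockout raised 22.2% and lowered 0%, beside 14.7% and 19.5% of all genes. JQ1 in 2iL raised 3.70% and lowered 18.5%, beside 11.1% and 17.3%. The knockout with DMSO had 18.5% higher and 11.1% lower, beside 18.9% and 21%. Pttg1, which encodes securin, fell in 2iL, where its DMSO libraries lay far apart (53.3 and 22.8 to 14.0 and 9.36 CPM, log2 -1.71 ± 0.31), and Cks1b, a CDK subunit, rose in the knockout (68.8 and 76.0 to 133 and 144 CPM, log2 0.94 ± 0.13). Among 21 G1 and checkpoint genes 11 were higher and 5 lower in 2iL, or 52.4% and 23.8%, beside 28.3% and 26.5% of all genes, so the share of lower genes was near the background. Cdkn1c, encoding p57Kip2, stood at 45.6 and 45.5 CPM in unmodified serum/LIF, 2.18 and 2.46 in the knockout and 6.29 and 3.73 in 2iL with DMSO (log2 -4.29 ± 0.23 and -3.18 ± 0.20). It was highest in the unmodified serum/LIF libraries, where the fibroblast markers were highest too. E2f5, an E2F of the repressive kind, rose with JQ1 in the knockout from 24.9 and 26.9 to 56.5 and 57.4 CPM (1.14 ± 0.13) and in unmodified serum/LIF from 33.8 and 29.2 to 49.3 and 57.4 CPM (0.76 ± 0.13).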

How the data were processed

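mRNA was sequenced from 12 samples, per the labels' protocols. STAR 2.5.2, RSEM, bcl2fastq, DESeq2 1.18.1 and mm10 are named in the submitters' processing notes; the annotation release, strand setting and filters are not given in the sources used here. The deposited values are the authors' expected counts, rounded here, and TPM. Of 52550 identifiers 99.72% matched GENCODE M21 without version.

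Genes kept by edgeR's filter (minimum count 10, minimum total 15) entered 1 quasi-likelihood fit over all 12 libraries (edgeR 4.0.16, R 4.3.3, TMM scaling, 6 residual degrees of freedom) with 8 contrasts: JQ1 against DMSO in each setting, 2iL and knockout against unmodified serum/LIF with DMSO, and the 3 differences between JQ1 responses. P-values were adjusted by Benjamini-Hochberg over 16987 genes, and ± gives a standard error. The alternatives were DESeq2 1.42.0, other scalings and filters, a fit without mitochondrially encoded genes, a fit of only the libraries compared, a fold minimum, a replicate block and leaving out each library. The members and gene lists were chosen with earlier results of these data known. Members passing in any contrast are named by role, and of each further list at most the 2 genes with the largest passing change. The fit was tested on simulated counts. Of the members 13 had counts that were not whole in some library (shared reads), among them Ccnd1, Ccnd2, Ccnd3, Cdk4, Rb1 and Rbl2, and 17 have exons that overlap another gene.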

Additional observations from a re-analysis of the deposited data

Results flagged for a closer look

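In 16 cases the JQ1 response of a member differed between settings by a test of the difference itself (log2, edgeR's quasi-likelihood test, adjusted over all genes). The response in 2iL minus that in unmodified serum/LIF was -1.94 for Ccnd2, -2.25 for Cdkn2c, -1.04 for Cdc25b, -0.93 for Ccnd1 and -0.61 for Aurkb. The last 3 had adjusted p = 0.0469, 0.0459 and 0.0444, which rose to 0.0851 to 0.196, 0.0582 to 0.2 and 0.0634 to 0.147 in the fits without 1 library that lost them. With RLE scaling they were 0.0516, 0.0625 and 0.0606, and with only the libraries compared 0.0685, 0.0909 and 0.0971.

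The response in the knockout minus that in unmodified serum/LIF was 1.43 for Cdkn2a, 1.11 for Rb1 and -1.02 for Ccnd1. The response in 2iL minus that in the knockout was -1.56 for Cdkn2a, -1.43 for Ccnd2, -0.94 for Ccnb2, -0.81 for Aurkb, -0.73 for Cdk1, -0.70 for Gmnn, -0.68 for Rb1 and -0.58 for Aurka. Of these 8, Ccnb2 and Cdkn2a held whichever library was left out. In the fits without 1 library that lost them, the log2 difference was -1.62 to -1.16 for Ccnd2 and -0.75 to -0.54 for Cdk1. It was -0.79 to -0.54 for Gmnn, -0.74 to -0.52 for Rb1 and -0.63 to -0.42 for Aurka. The Rb1 call was also lost with RLE scaling (adjusted p = 0.0501) and without a low-count filter (adjusted p = 0.0531). The 3 differences share libraries and are not independent of each other.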

How the results depend on the processing

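None of the 131 calls of members changed sign under any alternative. The count of members passing under JQ1 in unmodified serum/LIF, 8, was 5 with RLE scaling and 3 in a fit of only the 4 libraries compared. The same narrower fit gave 2 for the difference between 2iL and unmodified serum/LIF (5 in the full fit, 2 with RLE scaling) and 16 for that between 2iL and the knockout (8 in the full fit). Without a low-count filter the difference between the knockout and unmodified cells had 6 members in place of 3. When a log2 fold change of at least 1 was also asked for, 1, 3 and 4 members passed under JQ1 in unmodified serum/LIF, 2iL and the knockout, 11 for the medium and 7 for the knockout, and for the differences 3 remained between 2iL and unmodified serum/LIF and 2 between 2iL and the knockout.

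Leaving out 1 library gave 2 to 7 members for JQ1 in unmodified serum/LIF, 5 to 17 in 2iL, 12 to 18 in the knockout, 37 to 39 for the medium and 22 to 24 for the knockout, and 1 to 5, 1 to 6 and 2 to 14 for the differences (2iL and unmodified, knockout and unmodified, 2iL and knockout). A lone library is then assumed to vary like the other groups. With DESeq2 125 of the 131 calls held, and with the replicate block 130; the call lost was Cdk4 under JQ1 in 2iL (log2 -0.32, adjusted p = 0.0509). With the block 10, 17 and 26 members passed under JQ1 in unmodified serum/LIF, 2iL and the knockout. The labels do not say what a replicate number marks, and each comparison has 2 pairs. Deviations of same-numbered libraries from their group means correlated across genes at 0.185, 0.117 and 0.116 in the 3 JQ1 comparisons, 0.146 for the medium and 0.0679 for the knockout. Over all genes, DESeq2 moved the split of the difference between knockout and unmodified cells from 212 higher and 530 lower to 518 and 790. With 2 libraries a group, small changes of scarce genes such as Cdkn2c and Ccnd2 in 2iL are not resolved.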
